A study of Mus musculus with 7 samples.

Results

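Gene expression of stage 1 natural killer T (NKT) cells with and without the transcription factor PLZF was compared on 5 of the 7 Affymetrix arrays of the series, chosen by genotype and sort alone. All 5 samples were thymocytes of mice aged 4 to 6 weeks on a C57BL/6J background that carried the Valpha14 tg, a transgene for the T cell receptor alpha chain typical of NKT cells. They had been sorted as positive for the CD1d tetramer, low for CD24 and negative for CD44 and NK1.1. The unmutated group (n = 2) carried the transgene only. The Luxoid group (n = 3) carried in addition the Luxoid mutation of Zbtb16, the gene of PLZF, in the germ line, so that PLZF was missing from every cell of the mouse and not from NKT cells alone. The other 2 arrays held CD4SP cells, that is conventional CD4+ CD8- thymocytes, from wild-type animals without the transgene, and served only as a reference level and for the estimate of the spread. The cell type field of these 2 samples names the NKT sort, and their titles and descriptions, which name CD4SP, were followed. Each sample was a pool of mice that the labels call a biological replicate, and its RNA was amplified before labelling.

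NKT cells see lipids bound to CD1d through a nearly invariant T cell receptor. They arise from double-positive thymocytes by strong T cell receptor signals, leave selection as CD24-high stage 0 cells, and then pass through stage 1 before they take up effector fates that make interferon gamma, type 2 cytokines or interleukin 17. PLZF is a BTB zinc finger factor that is switched on soon after selection. It is known as the factor that gives NKT cells their innate, memory-like behaviour, and cells without it resemble conventional naive T cells and fail to home and respond as NKT cells do.

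Levels are the deposited RMA intensities on a linear scale, and RMA had already normalized the arrays to each other. A difference is the Luxoid mean minus the unmutated mean on the log2 scale, with its standard error from a limma fit over all 7 arrays, and it is positive where Luxoid is higher. A gene was called where the Benjamini-Hochberg adjusted p over all 10874 genes tested was under 0.05. Rose and fell are used of called genes only. Tested genes reached an intensity of 82.0 in at least 2 arrays, and this intensity also served as the floor for folds, so that a fold against a group lying wholly under it is given as a lower bound. Array medians were 79.6 to 83.7, array pairs within a group correlated over genes at 0.984 to 0.992, and Luxoid with unmutated arrays at 0.981 to 0.992. In bulk samples such as these, fewer cells that make a transcript and less of it in each cell cannot be told apart.

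Transcripts of Zbtb16 itself were present in all 5 arrays. The brightest of its 3 probe sets read 2751 and 3488 in the unmutated arrays and 1857, 2774 and 2645 in the Luxoid arrays, against 87.3 and 61.8 in CD4SP (-0.38 ± 0.23, adjusted p = 0.657 over all 20360 probe sets tested). The next read 1263 and 1579 against 621, 918 and 806 (-0.87 ± 0.21, adjusted p = 0.123), and the dimmest 728 and 745 against 396, 472 and 444 (-0.76 ± 0.15, adjusted p = 0.0576). No probe set was called, and the Luxoid arrays lay below both unmutated arrays in the last 2. These arrays measure transcript, not protein, so they do not check that PLZF protein was lost. All 5 arrays stood far above the CD4SP level, as the sort of NKT cells implies. Of the genes of the sorted proteins, Cd24a read 14.2 and 14.1 against 26, 14.9 and 57.1, with 246 and 239 in CD4SP, and Cd44 read 310 and 180 against 248, 181 and 186. The Y-linked Kdm5d and the X-linked Xist were both high in unmutated array 2 and Luxoid array 3, which were therefore pools of both sexes. Kdm5d read 6.49 and 1120 in the unmutated arrays and 8.28, 1745 and 758 in the Luxoid arrays, and Xist 5644 and 3888 in the unmutated arrays and 6547, 36.1 and 5426 in the Luxoid arrays.

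The number of called genes was 169, or 1.55% of those tested: 98 were higher in Luxoid (0.901%) and 71 lower (0.653%). The unmutated and Luxoid arrays did not overlap for any of the 169, while 26.7% of all tested genes had groups that did not overlap. The median size of a rise was 1.41 and of a fall 1.29 on the log2 scale, and 129 genes differed by at least 2-fold. For 18 rises every unmutated array lay under the floor, and for 17 falls every Luxoid array did. The count moved with single arrays: it was 64 without unmutated array 1, 55 without unmutated array 2 and 103 without Luxoid array 3. With U1 and U2 for the unmutated, L1 to L3 for the Luxoid and C1 and C2 for the CD4SP arrays, calls that ended when 1 array was left out are given below with the array and the range of adjusted p. Arrays of the same replicate number deviated together. Calls of listed or named genes that change when that number enters the fit as a replicate block are therefore given too. Number 3 stands on a Luxoid array only, so the blocked difference rests on arrays 1 and 2 of each group and takes nothing from L3. A core of 47 genes, 35 higher and 12 lower, was called whichever array was left out. Without both mixed-sex pools, which leaves 1 unmutated and 2 Luxoid arrays, only 10 genes were called, and of the genes named here only Kcnj8, Fgl2, Lratd1, Tsc22d3, Snx9, Ctla2a, Gm36723, St6galnac3 and Tgm3 were among them. No called gene changed direction under any alternative in which it was tested.

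**Figure D1:**
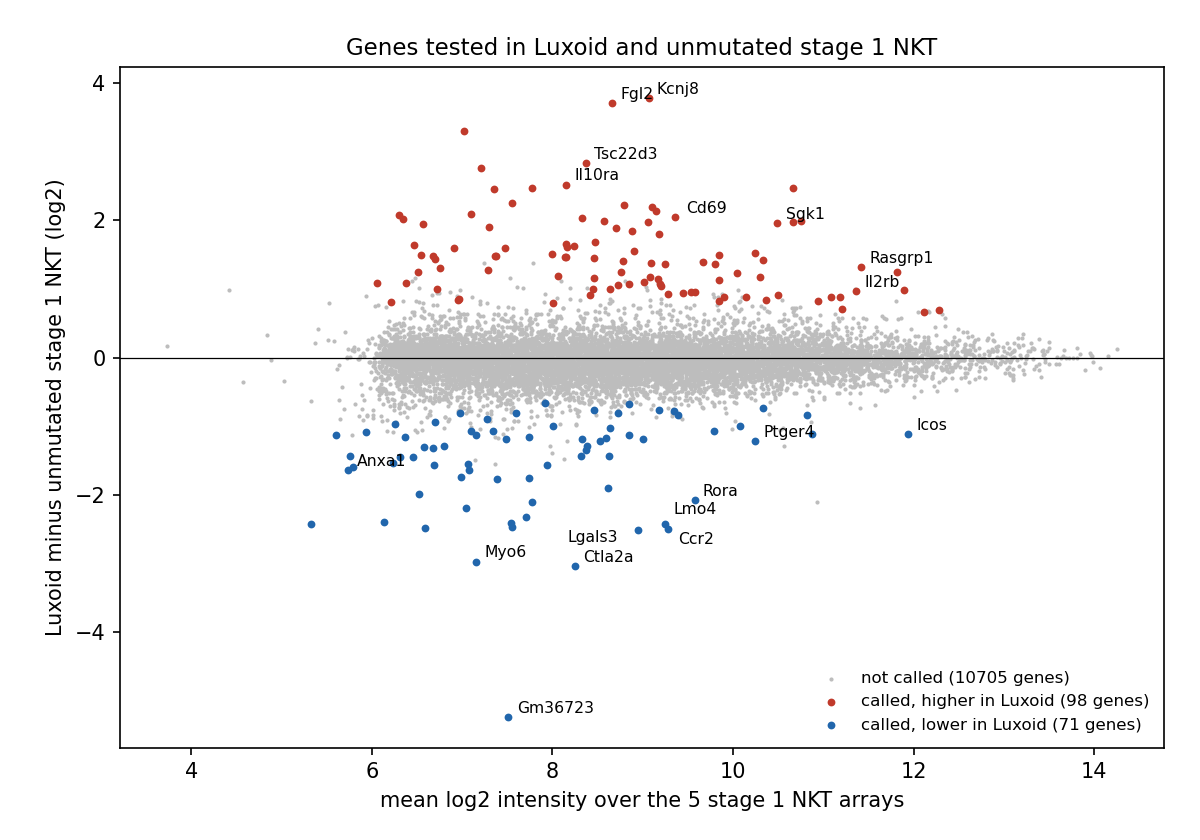
Difference between Luxoid and unmutated stage 1 NKT (y axis, log2) against mean log2 intensity over the 5 arrays (x axis), 1 point per gene tested. Red points are the 98 genes called higher, blue points the 71 called lower and grey points all others. Kcnj8 and Fgl2 lie highest and Gm36723 lowest.

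The largest rise was that of Kcnj8, the pore subunit of an ATP-sensitive potassium channel. It read 117 and 106 in the unmutated arrays and 1571, 1409 and 1615 in the Luxoid arrays, with 47.4 and 29.2 in CD4SP, a 13.7-fold rise (3.78 ± 0.20, adjusted p = 0.000107). Fgl2, a fibrinogen-like protein whose secreted form is known as an inhibitor made by regulatory T cells, read 112 and 66.9 in the unmutated arrays and 958, 1178 and 1278 in the Luxoid arrays and rose 13.1-fold (3.71 ± 0.23, adjusted p = 0.000207). Neither gene was near its Luxoid level in any other array, CD4SP included. Among the falls Gm36723, a long non-coding RNA in the RefSeq table, stood lowest and read 1419 and 1826 in the unmutated arrays and 40.3, 63.8 and 30.5 in the Luxoid arrays (-5.23 ± 0.28, adjusted p = 0.000107), a fall of at least 19.6-fold. Ctla2a, a small inhibitor of cathepsins, read 987 and 1188 in the unmutated arrays and 123, 154 and 120 in the Luxoid arrays, a fall of 8.25-fold (-3.04 ± 0.16, adjusted p = 0.000107). Its neighbour Ctla2b is nearly identical, and the probes may not tell them apart. In all 4 genes the lowest array of the higher group stood far above the highest array of the other.

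The promoters of these 4 genes are shown because they are the largest changes in each direction that no single array decides. They run from 250 bases before to 50 after the start of the gene in RefSeq on GRCm38.p6, 5′ to 3′ on the strand of the gene, and capitals mark CG pairs.
Kcnj8, chr6:142571565-142571864, minus strand: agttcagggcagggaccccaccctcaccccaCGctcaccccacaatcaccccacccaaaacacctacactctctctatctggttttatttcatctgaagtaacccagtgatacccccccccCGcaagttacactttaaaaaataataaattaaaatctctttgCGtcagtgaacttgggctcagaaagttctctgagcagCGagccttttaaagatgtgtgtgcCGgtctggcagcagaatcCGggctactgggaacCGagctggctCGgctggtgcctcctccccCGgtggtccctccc
Fgl2, chr5:21372423-21372722, plus strand: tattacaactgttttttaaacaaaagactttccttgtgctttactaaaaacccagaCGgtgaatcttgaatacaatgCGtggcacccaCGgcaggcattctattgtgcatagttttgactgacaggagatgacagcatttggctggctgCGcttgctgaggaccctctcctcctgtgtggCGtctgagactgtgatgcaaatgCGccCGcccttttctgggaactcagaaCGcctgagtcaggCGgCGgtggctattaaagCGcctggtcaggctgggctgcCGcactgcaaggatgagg
Gm36723, chr12:25355651-25355950, plus strand: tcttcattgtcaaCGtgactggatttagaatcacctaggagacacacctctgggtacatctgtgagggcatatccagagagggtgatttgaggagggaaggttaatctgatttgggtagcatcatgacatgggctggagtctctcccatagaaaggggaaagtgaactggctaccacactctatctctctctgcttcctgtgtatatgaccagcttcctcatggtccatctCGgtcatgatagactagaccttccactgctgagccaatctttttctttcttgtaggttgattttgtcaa
Ctla2a, chr13:60936576-60936875, minus strand: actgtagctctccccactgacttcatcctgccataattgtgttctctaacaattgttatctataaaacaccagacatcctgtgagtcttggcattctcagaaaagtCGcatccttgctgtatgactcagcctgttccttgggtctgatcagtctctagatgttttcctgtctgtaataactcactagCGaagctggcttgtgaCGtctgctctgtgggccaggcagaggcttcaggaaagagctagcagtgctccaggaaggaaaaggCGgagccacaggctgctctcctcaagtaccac
CG pairs mark the promoters of broadly expressed genes, and promoters of tissue-specific genes tend to hold fewer. Over the 76 rises with a promoter in the table the median was 15.5 CG pairs per 300 bases, over the 62 falls 11.5, and over all 8836 tested genes with one 21. Median GC content was 60.5%, 57.7% and 61%. Of 10 short motifs counted on both strands, CCGGAAG, the core of Ets sites, stood in 9.21% of the promoters of rises and 4.84% of those of falls against 19.6% of all. TGTGGT, a Runx-type core, stood in 14.5% and 24.2% against 12.6%, and TGANTCA, an AP-1-type site that takes any base at its centre, in 6.58% and 11.3% against 4.62%. Of the E-boxes, CAGCTG stood in 21.1% and 17.7% against 14.5%, and CAGGTG in 18.4% and 27.4% against 17.7%. AGATAA, the core of Gata sites, stood in 9.21% and 14.5% against 6.34%, and TGTTTAC, a forkhead core, in 1.32% and 6.45% against 2.51%. AGGTCA, a nuclear receptor half-site, stood in 14.5% and 9.68% against 12.1%, and TGACG, the core of Creb sites, in 21.1% and 27.4% against 32.9%. The glucocorticoid receptor type site stood in 0% and 1.61% against 0.26%. No test was made on these shares, and no binding data were used.

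Genes were grouped into lists by family and function, with earlier results of these data known, so a list's share of called genes is a description and not independent evidence. They were drawn by gene name and do not hold every gene of a function, so a count covers the list's members only, and called genes of like function outside a list are given further on. The lists together held 88 of the 169 called genes. Over all genes tested the median difference was -0.03, against which each list's median is to be read. A positive difference was found in 44% and a negative one in 56% of all genes tested, and the Luxoid arrays lay wholly above the unmutated ones in 10.1% and wholly below in 16.6%.

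**Figure D2:**
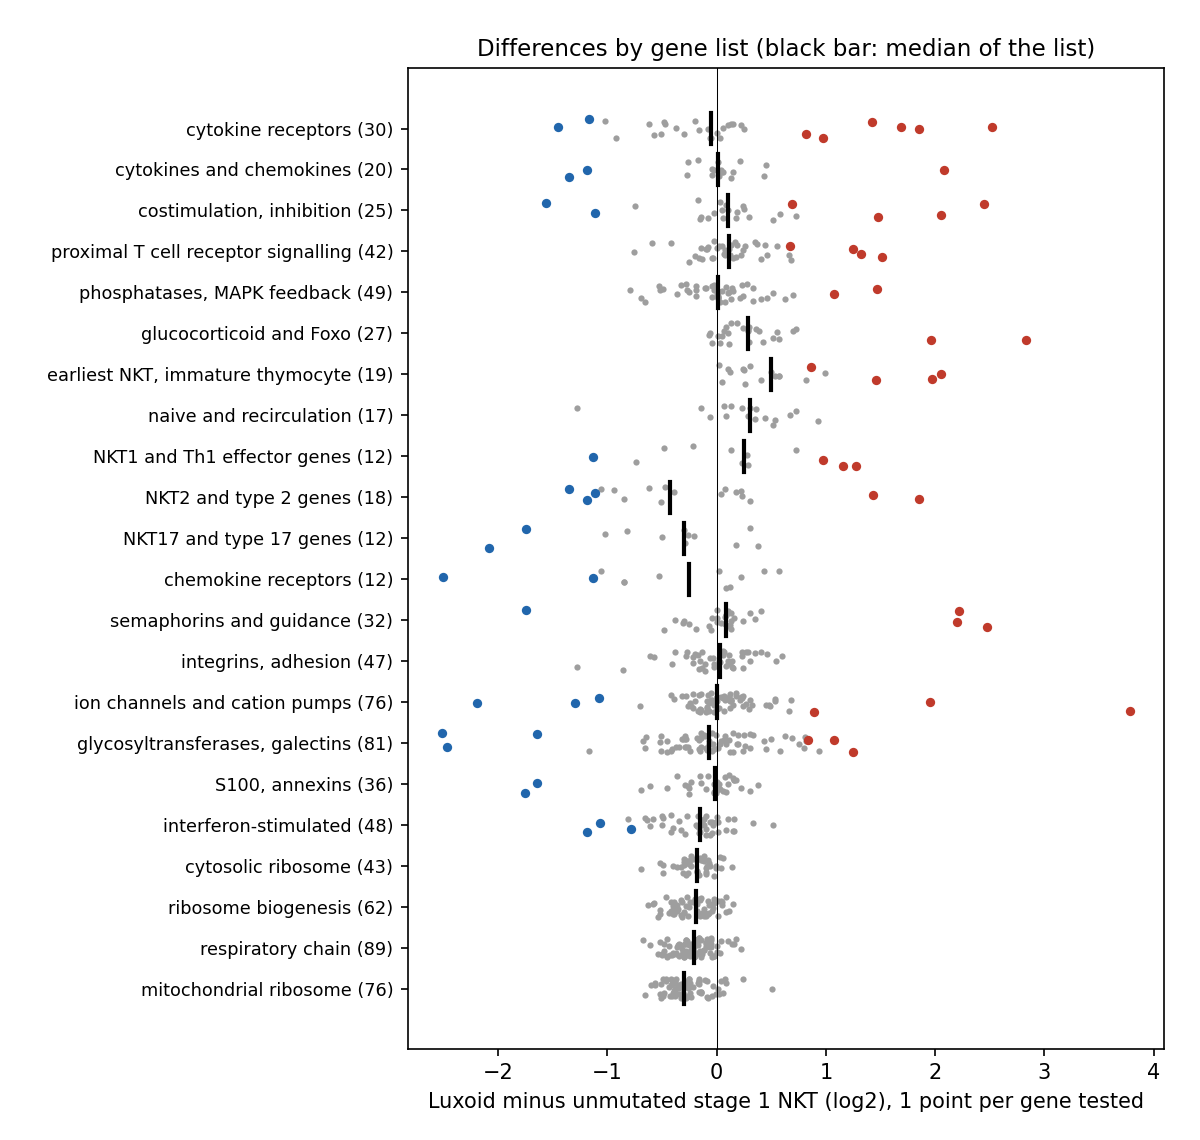
Differences of single genes (x axis, log2, Luxoid minus unmutated) in the lists named on the y axis, with the number of genes tested in brackets. Red and blue points were called higher and lower, grey points were not called, and the black bar is the list's median. Called genes lie on both sides in the cytokine receptors, while the 4 translation and respiration lists lie left of 0 without a called member.

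Cytokine receptors changed in both directions: 6 rose and 2 fell of 30 tested, that is 26.7% against 1.55% of all genes, with a median of -0.05. Il10ra, the ligand-binding chain for the inhibitory cytokine interleukin 10, read 108 and 92.2 in the unmutated arrays and 583, 475 and 672 in the Luxoid arrays, with 108 and 87.4 in CD4SP. It rose 5.73-fold (2.52 ± 0.18, adjusted p = 0.000477), and each Luxoid array was above every other array. Il4ra, the signalling chain for interleukins 4 and 13, read 173 and 277 in the unmutated arrays and 734, 895 and 742 in the Luxoid arrays (1.85 ± 0.21, adjusted p = 0.00295), with 1075 and 1017 in CD4SP, so that here the unmutated cells stood apart from both other groups. Ifngr1, the ligand-binding chain for interferon gamma, read 163 and 190 in the unmutated arrays and 561, 607 and 540 in the Luxoid arrays (1.69 ± 0.16, adjusted p = 0.00126). Il6st, the shared gp130 chain of the interleukin 6 family, read 714 and 714 in the unmutated arrays and 1619, 2149 and 2005 in the Luxoid arrays (1.42 ± 0.17, adjusted p = 0.00385). Il2rb and Il21r rose by less, by 0.97 and 0.82. The pair that fell are receptors for the cytokines that drive interferon gamma: Il12rb1 read 571 and 687 in the unmutated arrays and 318, 279 and 243 in the Luxoid arrays (-1.17 ± 0.16, adjusted p = 0.0106) and Il18rap 183 and 141 in the unmutated arrays and 76.1, 57.6 and 46.3 in the Luxoid arrays (-1.45 ± 0.22, adjusted p = 0.0148). Il10ra, Il4ra and Ifngr1 kept the call without any 1 of the 7 arrays. Leaving out U1 or U2 ended the calls of Il6st, Il12rb1 and Il18rap (adjusted p 0.0584 to 0.172), and leaving out U1, U2, L1, L2, L3, C1 or C2 ended that of Il2rb (adjusted p 0.0638 to 0.284). The call of Il21r ended without U1, U2, L2, L3, C1 or C2 (adjusted p 0.0765 to 0.283). Il2rb and Il21r lost the call with the replicate block (adjusted p 0.052 to 0.0606), and Il2rb with the Y-linked covariate (adjusted p = 0.0515).

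Among the 20 cytokines and chemokines tested, 1 rose and 2 fell, that is 15% against 1.55% of all genes. Kitl, the ligand of the receptor Kit, read 28 and 39.2 in the unmutated arrays and 192, 103 and 140 in the Luxoid arrays and rose at least 1.71-fold (2.08 ± 0.26, adjusted p = 0.00497). The falls were both type 2 cytokines: Il4 read 566 and 489 in the unmutated arrays and 274, 222 and 203 in the Luxoid arrays, a 2.28-fold fall (-1.19 ± 0.17, adjusted p = 0.01), and Il13 520 and 644 in the unmutated arrays and 206, 265 and 215 in the Luxoid arrays, a 2.54-fold fall (-1.35 ± 0.22, adjusted p = 0.0204). In CD4SP Il4 read 49.3 and 51.9 and Il13 69.5 and 109, so the Luxoid arrays kept levels between those of the other groups. Ifng, the type 1 cytokine, lay under the intensity filter in every array. The call of Kitl ended without U1 (adjusted p = 0.0844), and leaving out U1 or U2 ended that of Il4 (adjusted p 0.0777 to 0.131). Omitting U1, U2, L1 or L3 ended the call of Il13 (adjusted p 0.0525 to 0.279).

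Genes of the 3 effector fates of NKT cells did not move one way. Of 18 NKT2 and type 2 genes, Il4ra and Nfil3 rose while Il13, Il4 and Icos fell (27.8% called, against 1.55% of all genes), and the median was -0.43. That median was below 0 under every alternative except without the intensity filter, where it was 0.04. Nfil3, a bZIP factor that takes part in interleukin 4 and NK cell programmes, read 58.6 and 55.6 in the unmutated arrays and 180, 136 and 150 in the Luxoid arrays (1.43 ± 0.16, adjusted p = 0.00354). Icos, a costimulatory receptor that is high on PLZF-expressing cells, read 6599 and 5867 in the unmutated arrays and 3298, 2722 and 2652 in the Luxoid arrays, with 3135 and 2778 in CD4SP, a 2.16-fold fall to the CD4SP level (-1.11 ± 0.15, adjusted p = 0.00946). Gata3, the lead factor of the type 2 fate, read 852 and 726 in the unmutated arrays and 600, 640 and 564 in the Luxoid arrays (adjusted p = 0.431), and Il17rb, the interleukin 25 receptor, 1233 and 1066 in the unmutated arrays and 674, 1016 and 755 in the Luxoid arrays (adjusted p = 0.349), and neither was called. Of 12 NKT17 and type 17 genes 2 fell and none rose, or 16.7% (median -0.29, -0.42 to -0.23 over the alternatives). Rora, a nuclear receptor that works with RORgt, read 1703 and 1922 in the unmutated arrays and 378, 365 and 571 in the Luxoid arrays and fell 4.22-fold (-2.08 ± 0.23, adjusted p = 0.00293). Nrp1, a semaphorin co-receptor, read 308 and 223 in the unmutated arrays and 74.7, 74.3 and 86.7 in the Luxoid arrays and fell 3.35-fold (-1.74 ± 0.18, adjusted p = 0.00238). The call of Nrp1 held whichever array was left out. The absence of U2 ended the calls of Nfil3 and Rora (adjusted p 0.0638 to 0.0685), and leaving out U1 or U2 ended that of Icos (adjusted p 0.0807 to 0.125).

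Of 12 NKT1 and Th1 effector genes 3 rose and 1 fell, that is 33.3% against 1.55% of all genes (median 0.26). Those that rose were Il2rb, the serine protease Gzmb of cytotoxic granules, which read 115 and 73.1 in the unmutated arrays and 277, 216 and 184 in the Luxoid arrays (1.28 ± 0.23, adjusted p = 0.0358), and Hopx, a homeodomain-only protein, which read 218 and 216 in the unmutated arrays and 421, 662 and 412 in the Luxoid arrays (1.16 ± 0.22, adjusted p = 0.0457). The fall was that of the chemokine receptor Cxcr3, 69.3 and 87 in the unmutated arrays and 41.8, 29.5 and 36.3 in the Luxoid arrays (-1.13 ± 0.18, adjusted p = 0.0208). No fold is given for Cxcr3, since the unmutated mean also lay under the floor. T-bet, the lead factor of this fate encoded by Tbx21, was not called at 115 and 106 in the unmutated arrays and 70.4, 74.9 and 94.1 in the Luxoid arrays (adjusted p = 0.266), nor was Id2, a partner of E proteins, at 3708 and 3660 in the unmutated arrays and 2479, 2292 and 1900 in the Luxoid arrays (adjusted p = 0.0647). NK cell markers were summed beside these genes. The summed level of the 8 on the array was 1563 and 1379 in the unmutated and 2176, 2013 and 2006 in the Luxoid arrays. Fcer1g, the 1 called of 4 tested, carried this difference, at 253 and 218 against 843, 982 and 951. Prf1 (975 and 946 against 949, 798 and 738), Gzma (131 and 59.7 against 168, 74.6 and 99.9) and Tyrobp (116 and 61.9 against 135, 76.3 and 133) overlapped. Ncr1, Eomes, Klra8 and Klre1 lay under the filter in all arrays. The part of NK cells in these rises was not tested. The calls of Il2rb and Gzmb ended without U1, U2, L1, L2, L3, C1 or C2 (adjusted p 0.0564 to 0.352), and leaving out U1, U2, L1, L3, C1 or C2 ended that of Hopx (adjusted p 0.0526 to 0.352). Dropping U1, U2, L3, C1 or C2 ended the call of Cxcr3 (adjusted p 0.0553 to 0.279). Il2rb, Hopx and Cxcr3 lost the call with the replicate block (adjusted p 0.0606 to 0.0641), and Il2rb and Hopx with the Y-linked covariate (adjusted p 0.0515 to 0.0746), and Hopx without the intensity filter (adjusted p = 0.0618).

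Genes of NK-type receptors and granules beyond the NKT1 list also moved both ways. Of 16 lectin receptors and adaptors, 2 rose and 1 fell, that is 18.8% against 1.55% of all genes. Fcer1g, the signalling adaptor of Fc and NK receptors, read 253 and 218 in the unmutated arrays and 843, 982 and 951 in the Luxoid arrays, with 68.9 and 82.5 in CD4SP, a 3.94-fold rise (1.98 ± 0.15, adjusted p = 0.000554). Klrb1a read 370 and 257 in the unmutated arrays and 743, 987 and 700 in the Luxoid arrays (1.38 ± 0.25, adjusted p = 0.0347) and Klrb1f 97.5 and 125 in the unmutated arrays and 25.5, 15.3 and 22.3 in the Luxoid arrays (-2.42 ± 0.22, adjusted p = 0.00124). These are close relatives of the NK1.1 gene, so probes may share signal among the family. Of 72 proteases, inhibitors and transglutaminases, listed by name, the granzymes Gzmb and Gzmc and the matrix protease Mmp14 rose, and Ctla2a and Tgm3 fell (6.94% called, median 0.01). Tgm3, a transglutaminase known from skin, read 537 and 482 in the unmutated arrays and 109, 85.9 and 93.1 in the Luxoid arrays and fell 5.33-fold (-2.41 ± 0.15, adjusted p = 0.000207), while Gzmc and Mmp14 reached only 86.7, 81.5 and 103 and 81.7, 102 and 94.7 in Luxoid. Without any 1 array, Fcer1g, Klrb1f and Tgm3 stayed called. Leaving out U1, U2, L1, L2 or L3 ended the call of Klrb1a (adjusted p 0.0604 to 0.36), and leaving out U1, U2 or L3 ended that of Gzmc (adjusted p 0.0565 to 0.185). The call of Mmp14 ended without U1, U2, L2, L3, C1 or C2 (adjusted p 0.0925 to 0.328). Klrb1a and Mmp14 lost the call with the replicate block (adjusted p 0.053 to 0.0578), and Mmp14 with the mean of all probe sets (adjusted p = 0.22), and Mmp14 without the intensity filter (adjusted p = 0.0508), and Mmp14 with 16 added before log2 (adjusted p = 0.061).

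**Figure D3:**
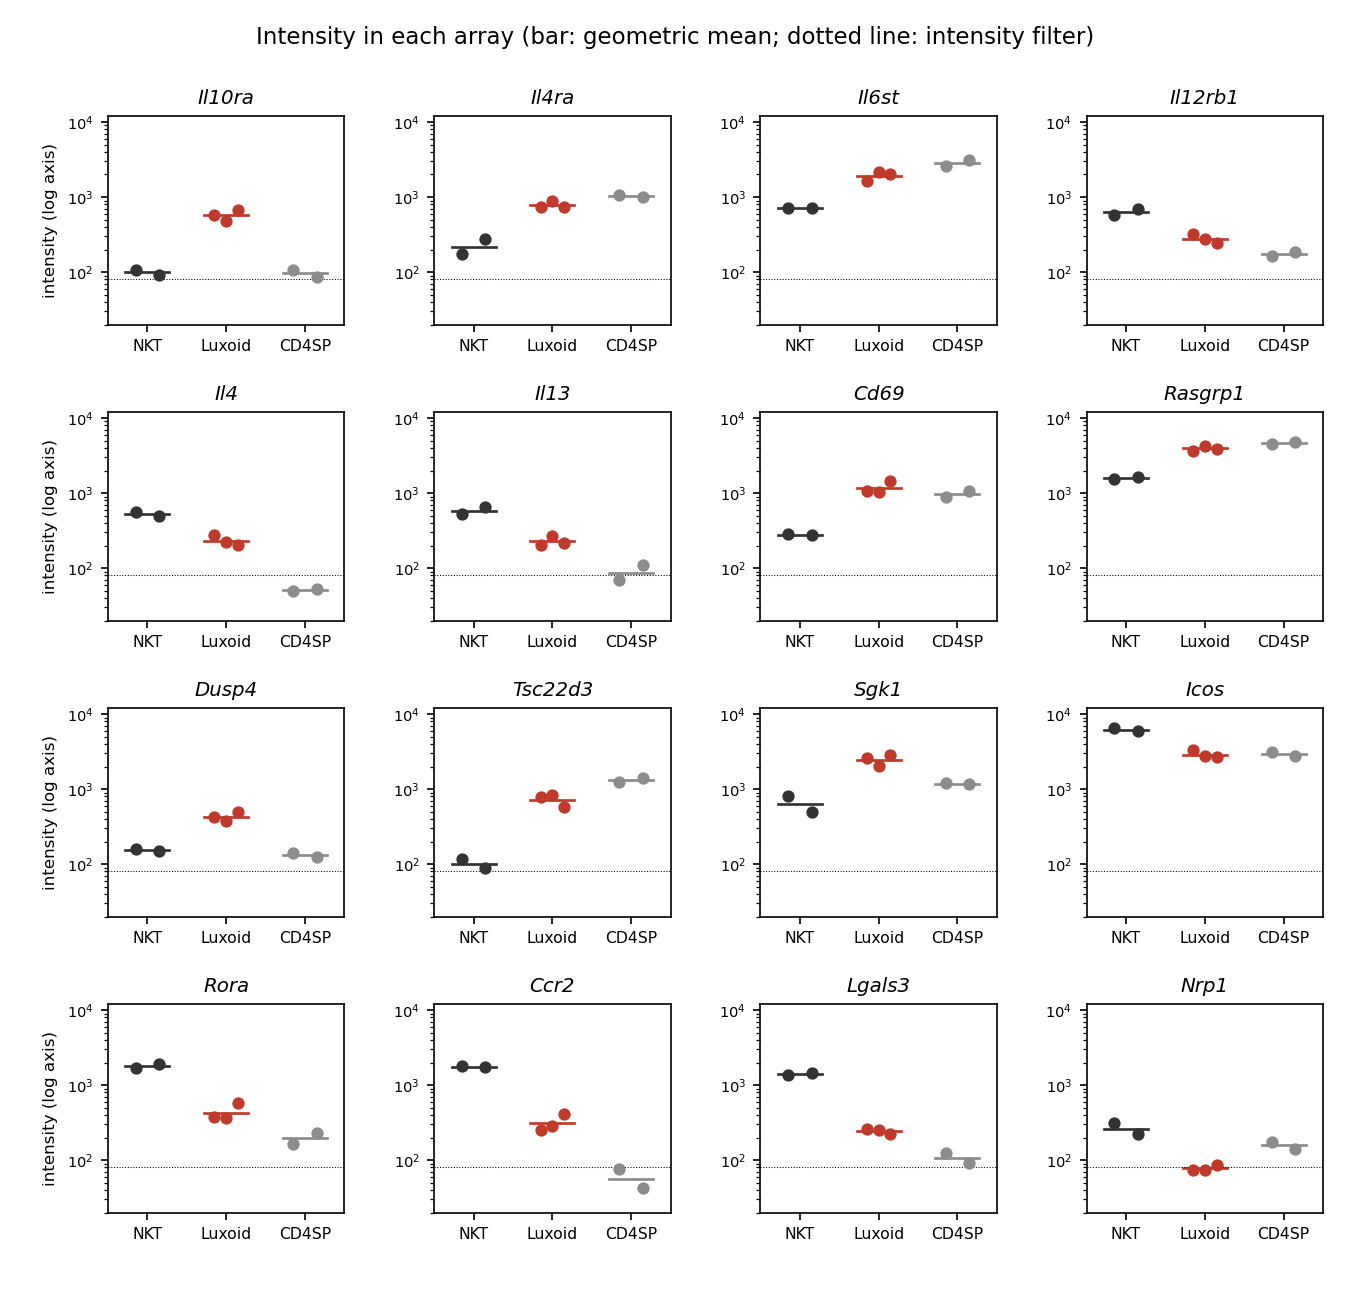
Intensity of 16 genes (y axis, log) in each of the 2 unmutated NKT, 3 Luxoid and 2 CD4SP arrays, 1 point per array, with the geometric mean as a bar and the filter of 82.0 dotted. The Luxoid arrays stand above the unmutated arrays in Il10ra, Il4ra, Il6st, Cd69, Rasgrp1, Dusp4, Tsc22d3 and Sgk1, and below them in Il12rb1, Il4, Il13, Icos, Rora, Ccr2, Lgals3 and Nrp1.

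Proximal T cell receptor signalling had 4 rises and 0 falls among 42 genes tested, that is 9.52% against 1.55% of all genes (median 0.11, 0.06 to 0.15 over the alternatives). Rasgrp1, the exchange factor that couples diacylglycerol to Ras, read 1543 and 1623 in the unmutated arrays and 3687, 4272 and 3918 in the Luxoid arrays, with 4497 and 4830 in CD4SP, a 2.5-fold rise (1.32 ± 0.13, adjusted p = 0.00192). Ubash3a, a negative regulator of receptor signals, read 133 and 139 in the unmutated arrays and 423, 476 and 290 in the Luxoid arrays (1.51 ± 0.21, adjusted p = 0.0111). Ppp3cc, a catalytic subunit of calcineurin, read 259 and 257 in the unmutated arrays and 539, 566 and 753 in the Luxoid arrays (1.25 ± 0.17, adjusted p = 0.00857). Dgka, the kinase that removes diacylglycerol, read 3484 and 3242 in the unmutated arrays and 5305, 5152 and 5555 in the Luxoid arrays (0.67 ± 0.13, adjusted p = 0.0413). The chains of CD3 differed little: Cd3e read 4035 and 4660 in the unmutated arrays and 4352, 5097 and 4671 in the Luxoid arrays (0.12, adjusted p = 0.841). Positive and negative regulators thus both rose. The call of Rasgrp1 held whichever array was left out. The calls of Ubash3a and Ppp3cc ended without U1 or U2 (adjusted p 0.102 to 0.137), and leaving out U1, U2, L1, L2, L3, C1 or C2 ended that of Dgka (adjusted p 0.0719 to 0.36). Dgka lost the call with the replicate block (adjusted p = 0.0641).

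Downstream of the receptor, the feedback phosphatases Dusp4 and Dusp6, which remove phosphate from MAP kinases, were the 2 rises of 49 phosphatase and feedback genes (4.08% called). Dusp4 read 160 and 148 in the unmutated arrays and 420, 380 and 491 in the Luxoid arrays (1.47 ± 0.16, adjusted p = 0.00234) and Dusp6 322 and 272 in the unmutated arrays and 663, 543 and 667 in the Luxoid arrays (1.07 ± 0.16, adjusted p = 0.014). Rgs1, which damps G protein and so chemokine signals, was the only call of 51 G protein genes, or 1.96% against 1.55% of all genes. It read 200 and 180 in the unmutated arrays and 621, 862 and 649 in the Luxoid arrays and rose (1.89 ± 0.18, adjusted p = 0.00124). Pik3ap1, an adaptor of phosphoinositide 3-kinase, read 185 and 148 in the unmutated arrays and 622, 551 and 839 in the Luxoid arrays, a 3.98-fold rise (1.99 ± 0.20, adjusted p = 0.00201). Peli1, a ubiquitin ligase that restrains T cell activation, was the call among the 253 members of the ubiquitin list, or 0.395% (0.83 ± 0.15, adjusted p = 0.0362). The ligase genes Neurl3 and Hectd2, which the list does not hold, rose as well. Egr2, which T cell receptor signals induce and which stands upstream of Zbtb16 in NKT cells, read 2292 and 2819 in the unmutated arrays and 3807, 4634 and 5130 in the Luxoid arrays and missed the threshold (0.82 ± 0.17, adjusted p = 0.0617). None of the 21 NF-kappaB and 20 Jak, Stat and Socs genes tested was called, and with the replicate block Tnfaip8 of the NF-kappaB list was (adjusted p = 0.0424). Genes of cell handling stress were summed beside this group, and their part in the result was not tested. The 12 on the array summed to 11337 and 11003 in the unmutated and 13134, 13531 and 13099 in the Luxoid arrays, and 0 of 6 tested were called. Dnajb1, the largest part, overlapped (6521 and 5204 against 6985, 6541 and 6458), and Egr1 read 1716 and 1868 against 2707, 2559 and 2329. Jun (111 and 735 against 62.7, 561 and 479) varied widely within both groups. Fos (22.2 and 136 against 108, 140 and 112) varied widely in the unmutated arrays. Fosb, Atf3, Junb and Hspa1a lay under the filter in all arrays. Dusp4, Rgs1 and Pik3ap1 kept the call without any 1 of the 7 arrays. The absence of U1, U2 or L3 ended the call of Dusp6 (adjusted p 0.0564 to 0.202), and leaving out U1, U2, L2, L3, C1 or C2 ended that of Peli1 (adjusted p 0.0819 to 0.279).

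Of 25 costimulatory and inhibitory receptors 4 rose and 2 fell, that is 24% against 1.55% of all genes (median 0.10). Cd200r1, an inhibitory receptor for CD200, read 74.7 and 46.3 in the unmutated arrays and 302, 438 and 253 in the Luxoid arrays and rose at least 3.93-fold (2.45 ± 0.27, adjusted p = 0.00254). Cd69, an early activation marker that also keeps cells in the thymus by removing the egress receptor, read 283 and 277 in the unmutated arrays and 1055, 1040 and 1429 in the Luxoid arrays, with 882 and 1066 in CD4SP, a 4.15-fold rise (2.05 ± 0.18, adjusted p = 0.000955). Icosl, the ligand of Icos, read 60.9 and 49.9 in the unmutated arrays and 159, 144 and 158 in the Luxoid arrays (1.48 ± 0.14, adjusted p = 0.00147), while Icos itself fell as given above. Cd2, an adhesion receptor, read 3606 and 3850 in the unmutated arrays and 6047, 6490 and 5563 in the Luxoid arrays (0.69 ± 0.13, adjusted p = 0.0484). The inhibitory collagen receptor Lair1 fell, from 168 and 232 to 86.1, 70.1 and 49.8 (-1.56 ± 0.24, adjusted p = 0.0178). Of 34 TNF family genes (5.88% called), Tnfsf8, the ligand of CD30, rose (1.65 ± 0.25, adjusted p = 0.0152) and Tnfrsf25, the receptor of TL1A, fell (-1.28 ± 0.19, adjusted p = 0.014). With the replicate block Traf1 of this family was called too (blocked difference -0.95, adjusted p = 0.0232). Without any 1 array, Cd200r1, Cd69 and Icosl stayed called. The call of Cd2 ended without U1, U2, L1, L2, L3, C1 or C2 (adjusted p 0.0818 to 0.309), and leaving out U1 or U2 ended those of Lair1, Tnfsf8 and Tnfrsf25 (adjusted p 0.0764 to 0.244). Cd2 lost the call without the intensity filter (adjusted p = 0.0519).

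Genes that respond to glucocorticoid or to Foxo factors, which keep T cells resting, gave 2 rises and 0 falls of 27, that is 7.41% against 1.55% of all genes. A positive difference was found in 24, against 44% of all genes, and the median was 0.29 (0.17 to 0.38 over the alternatives). Tsc22d3, the glucocorticoid-induced leucine zipper, read 118 and 87.6 in the unmutated arrays and 781, 826 and 586 in the Luxoid arrays, with 1242 and 1401 in CD4SP, a 7.11-fold rise (2.83 ± 0.20, adjusted p = 0.000377). Sgk1, a kinase induced by glucocorticoid, read 819 and 494 in the unmutated arrays and 2618, 2041 and 2835 in the Luxoid arrays, a 3.89-fold rise (1.96 ± 0.23, adjusted p = 0.00399). Neither gene was as low in any Luxoid or CD4SP array as in the unmutated ones. The related Tsc22d1 rose 3.97-fold (1.99 ± 0.15, adjusted p = 0.000477), although 2 of its 5 further probe sets above the filter had the opposite sign. The call of Tsc22d3, Sgk1 and Tsc22d1 held whichever array was left out.

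All 19 tested genes of the earliest NKT precursors and of immature thymocytes had a positive difference, against 44% of all genes tested, with a median of 0.50 (0.23 to 0.62 over the alternatives). 4 of them rose, against 0.901% of all genes, and in 10 the Luxoid arrays lay wholly above the unmutated ones, against 10.1%. Itm2a, a membrane protein of thymocytes induced on selection, read 791 and 648 in the unmutated arrays and 2546, 2809 and 3090 in the Luxoid arrays, with 4014 and 3718 in CD4SP, a 3.92-fold rise (1.97 ± 0.15, adjusted p = 0.000554). Bcl6, a BTB zinc finger factor like PLZF, was the call among 41 of that family, or 2.44% against 1.55% of all genes. It read 167 and 142 in the unmutated arrays and 439, 441 and 391 in the Luxoid arrays, with 639 and 646 in CD4SP, a 2.75-fold rise (1.46 ± 0.14, adjusted p = 0.00143). Cd69 was the third and Cd8a the fourth, the latter low throughout at 82.3 and 93.6 in the unmutated arrays and 144, 184 and 152 in the Luxoid arrays (0.86 ± 0.16, adjusted p = 0.0342). Double-positive thymocytes also express such genes. The sum of their 8 markers on the array was 1993 and 1431 in the unmutated and 1966, 1770 and 2176 in the Luxoid arrays, which overlap. Rmnd5a and Cd1d1 made up most of it. None of 4 tested was called, and Rag1, Rag2, Ptcra and Arpp21 lay under the filter in every array. Dntt read 73.7 and 46.4 in the unmutated and 98, 51.1 and 120 in the Luxoid arrays, and Cd8b1 61.9 and 67.6 against 83.4, 43.8 and 123. Among the 5 arrays both were highest in L3 and next in L1, as was Cd24a. The part of double-positive thymocytes in the result was not tested. Itm2a and Bcl6 kept the call without any 1 of the 7 arrays. The call of Cd8a ended without U1, U2, L2, L3, C1 or C2 (adjusted p 0.0659 to 0.283). Cd8a lost the call with the mean of all probe sets (adjusted p = 0.157).

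Naive T cell and recirculation genes had 14 of 17 positive differences, against 44% of all genes, and a median of 0.31 (0.20 to 0.38 over the alternatives), but no gene was called, and the following differences missed the threshold. Bach2, a repressor that holds T cells naive, read 702 and 578 in the unmutated arrays and 1587, 1133 and 1005 in the Luxoid arrays (0.93 ± 0.20, adjusted p = 0.076), and with the replicate block it was called (adjusted p = 0.0248). S1pr1, the egress receptor that Cd69 removes, read 1077 and 1395 in the unmutated arrays and 1910, 2091 and 2125 in the Luxoid arrays (0.73 ± 0.17, adjusted p = 0.0918), and Klf2, its inducer, 891 and 892 in the unmutated arrays and 1501, 1292 and 1086 in the Luxoid arrays (0.52 ± 0.18, adjusted p = 0.294). In these 3 genes the Luxoid arrays lay wholly above the unmutated ones, as they did in 9 of the list's 17, or 52.9%, against 10.1% of all genes tested. In 1 of the 17 they lay wholly below, against 16.6% of all genes. The integrin gene Itgae went the other way, at 2401 and 2782 in the unmutated arrays and 1150, 1069 and 983 in the Luxoid arrays (-1.28 ± 0.27, adjusted p = 0.0694). 
Receptors that guide migration were compared next. Of 12 chemokine receptors none rose, and Ccr2 and Cxcr3 fell, that is 16.7% against 1.55% of all genes. Cxcr3 lost the call with the replicate block as given above, while Ccr4 gained one (adjusted p = 0.0336). Ccr2, the receptor for inflammatory monocyte chemoattractants, read 1776 and 1732 in the unmutated arrays and 256, 281 and 413 in the Luxoid arrays, with 75.4 and 42.5 in CD4SP, a 5.66-fold fall (-2.50 ± 0.27, adjusted p = 0.00266). The receptors of thymic and lymphoid chemokines were not called, with Ccr7 at 1719 and 1936 in the unmutated arrays and 1907, 2021 and 1891 in the Luxoid arrays (0.09), Ccr9 at 3341 and 3610 in the unmutated arrays and 3772, 3631 and 3213 in the Luxoid arrays (0.02) and Cxcr4 at 4305 and 3927 in the unmutated arrays and 5488, 6001 and 6840 in the Luxoid arrays (0.57). The list's median was -0.26, and 0.04 without the intensity filter. Of 64 other G protein-coupled receptors and partners 4.69% were called. Ramp3, which pairs with calcitonin-type receptors, rose from 85.3 and 72.1 to 561, 421 and 346 (2.47 ± 0.25, adjusted p = 0.00213). Ptger4, a prostaglandin E2 receptor, fell from 2175 and 1856 to 955, 793 and 856 (-1.22 ± 0.15, adjusted p = 0.00435), and Gpr155 fell by less (-0.80 ± 0.13, adjusted p = 0.0204). None of the 47 integrins, selectins, cadherins and tetraspanins was called. Without any 1 array, Ramp3 stayed called. The absence of U2 ended the call of Ccr2 (adjusted p = 0.0521), and leaving out U1 ended that of Ptger4 (adjusted p = 0.0749). The call of Gpr155 ended without U1, U2, L3, C1 or C2 (adjusted p 0.0507 to 0.195).

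Guidance molecules, known from axons and used by immune cells in contact and movement, gave 3 rises and 1 fall of 32, or 12.5%. Sema4f, a membrane semaphorin, read 680 and 492 in the unmutated arrays and 3248, 2670 and 3817 in the Luxoid arrays, with 1294 and 972 in CD4SP, a 5.55-fold rise (2.47 ± 0.22, adjusted p = 0.000955). Chl1, an adhesion molecule of the L1 family, read 276 and 175 in the unmutated arrays and 796, 1049 and 1241 in the Luxoid arrays (2.20 ± 0.24, adjusted p = 0.00254). The neuropilins, co-receptors for semaphorins, moved apart: Nrp2 read 225 and 138 in the unmutated arrays and 954, 726 and 796 in the Luxoid arrays (2.22 ± 0.23, adjusted p = 0.0023), whereas Nrp1 fell. The only further Nrp2 probe set above the filter had the opposite sign. The call of Sema4f, Chl1, Nrp2 and Nrp1 held whichever array was left out. Nrp2 lost the call with the mean of all probe sets (adjusted p = 0.0886).

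Transcription factors outside the BTB family moved in both directions. Of 76 Runx, Gata, Ikaros, nuclear receptor, T-box, LIM and homeobox factors none rose, and Lmo4, Rora and Nr1d2 fell (3.95% called). Lmo4, a LIM-only adaptor of transcription complexes, read 1745 and 1595 in the unmutated arrays and 283, 465 and 226 in the Luxoid arrays, with 159 and 233 in CD4SP, a 5.38-fold fall (-2.43 ± 0.29, adjusted p = 0.00435). Nr1d2, a repressor of the circadian clock, read 160 and 192 in the unmutated arrays and 93.7, 50.9 and 74.6 in the Luxoid arrays (-1.31 ± 0.24, adjusted p = 0.0376). Of 32 bZIP factors (6.25% called) Nfil3 rose and Dbp, also of the clock, fell from 608 and 611 to 377, 416 and 353 (-0.68 ± 0.13, adjusted p = 0.0493). Of 250 Zfp-named genes Zfp608 (1.60) and Zfp318 (0.96) rose, that is 0.8% called against 1.55% of all genes. Without the block no call was made among 34 E proteins, Id proteins and other bHLH factors, 24 Klf, Egr and Nr4a factors, 27 forkhead and Ets factors or 147 listed chromatin enzymes. With the replicate block Bhlhe40 (adjusted p = 0.0122), Nr4a3 (adjusted p = 0.0336) and Etv6 (adjusted p = 0.0301) were called in the first 3 of these lists. The E protein inhibitor Id3 read 2375 and 2234 in the unmutated arrays and 2761, 2358 and 2081 in the Luxoid arrays (0.05) and Myc 1801 and 1935 in the unmutated arrays and 1540, 1881 and 1262 in the Luxoid arrays (-0.28). Leaving out U1 or U2 ended the calls of Lmo4, Zfp608 and Zfp318 (adjusted p 0.0685 to 0.171), and leaving out U1, U2, L3, C1 or C2 ended that of Nr1d2 (adjusted p 0.092 to 0.362). The call of Dbp ended without U1, U2, L1, L2, L3, C1 or C2 (adjusted p 0.0532 to 0.352). Nr1d2 and Dbp lost the call with the replicate block (adjusted p 0.0719 to 0.0931), and Nr1d2 with the Y-linked covariate (adjusted p = 0.0676), and Nr1d2 and Dbp without the intensity filter (adjusted p 0.0516 to 0.0522), and Dbp after quantile normalization (adjusted p = 0.0652), and Dbp after median centring (adjusted p = 0.0603), and Dbp with a trended prior (adjusted p = 0.0534).

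Ion channels and pumps gave 3 rises and 3 falls of 76, that is 7.89% against 1.55% of all genes. Beside Kcnj8 the rises were Scn4b, a beta subunit of sodium channels, from 44.8 and 39.5 to 185, 144 and 160 (1.95 ± 0.17, adjusted p = 0.000955), and the proton channel Hvcn1 (0.89 ± 0.14, adjusted p = 0.0208). Trpm6, a magnesium channel fused to a kinase, fell from 354 and 305 to 73.9, 68.4 and 72.9, at least 4-fold (-2.19 ± 0.15, adjusted p = 0.000377). The calcium-activated potassium channel Kcnn2 (-1.30) and the channel partner Kcnip2 (-1.08) fell too. The aquaglyceroporin Aqp9, which stands in no list, fell from 237 and 186 to 55.7, 63.5 and 41.4 (-1.99 ± 0.22, adjusted p = 0.00294). Without any 1 array, Kcnj8, Scn4b and Trpm6 stayed called. The call of Hvcn1 ended without U1, U2, L2 or L3 (adjusted p 0.0508 to 0.208), and leaving out U1 or U2 ended that of Kcnn2 (adjusted p 0.0638 to 0.0907). Omitting U1, U2, L1, L2 or L3 ended the call of Kcnip2 (adjusted p 0.0611 to 0.331), and leaving out U1 ended that of Aqp9 (adjusted p = 0.0568). Kcnip2 lost the call with the replicate block (adjusted p = 0.0851), and Kcnip2 with the mean of all probe sets (adjusted p = 0.0588), and Kcnip2 with the Y-linked covariate (adjusted p = 0.052).

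Genes that shape the cell surface and its sugars moved both ways. Of 81 glycosyltransferases, sulfotransferases and galectins 3 rose and 3 fell, that is 7.41% against 1.55% of all genes. With the replicate block Gcnt1 of this list was called too (blocked difference -1.38, adjusted p = 0.0078). Lgals3, galectin-3, which crosslinks surface glycans, read 1363 and 1443 in the unmutated arrays and 260, 253 and 226 in the Luxoid arrays, with 125 and 91.9 in CD4SP, a 5.71-fold fall (-2.51 ± 0.16, adjusted p = 0.000275). St6galnac3, a sialyltransferase, read 493 and 552 in the unmutated arrays and 75.5, 97.4 and 114 in the Luxoid arrays, a 5.52-fold fall (-2.47 ± 0.19, adjusted p = 0.00051), and St3gal6 fell 3.11-fold. The rises were the sulfotransferase Chst2, from 2455 and 1857 to 5137, 4839 and 5272 (1.25 ± 0.15, adjusted p = 0.00493), the ganglioside synthase St3gal5 (1.07) and the mannosidase Man1c1 (0.84). Of 36 S100 proteins, annexins, Emp proteins and filament proteins none rose and 2 fell, or 5.56%. Emp1, an epithelial membrane protein, fell from 354 and 559 to 123, 140 and 134 (-1.75 ± 0.20, adjusted p = 0.00295), and Anxa1, an anti-inflammatory phospholipid-binding protein, from 117 and 95.5 to 36.7, 42.6 and 24.8 (-1.64 ± 0.26, adjusted p = 0.0178). The call of Lgals3, St6galnac3 and Emp1 held whichever array was left out. The absence of U1 or U2 ended the calls of St3gal6, St3gal5 and Anxa1 (adjusted p 0.0516 to 0.195), and leaving out U2 ended that of Chst2 (adjusted p = 0.0685). The call of Man1c1 ended without U1, U2, L1, L2 or L3 (adjusted p 0.0599 to 0.244). St3gal6 and Anxa1 lost the call with the mean of all probe sets (adjusted p 0.0505 to 0.0537).

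In the large families of membrane traffic and the cytoskeleton the share of called genes stood above the 1.55% of all genes tested. It was 2.7% in membrane traffic, 3.57% in the cytoskeleton and 4.76% in small GTPases and regulators. Of 148 sorting nexins, Rab proteins, SNAREs and synaptotagmins 3 rose and 1 fell. Snx9, a sorting nexin of endocytosis, read 46.6 and 47.5 in the unmutated arrays and 307, 287 and 368 in the Luxoid arrays, with 62.8 and 57 in CD4SP and rose at least 3.89-fold (2.76 ± 0.15, adjusted p = 0.000107). The SNARE Stx3 (1.62) and Syt11 (0.93) rose by less, and Mctp1, a calcium-binding membrane protein, fell from 173 and 208 to 38.7, 31.9 and 38.4 (-2.39 ± 0.22, adjusted p = 0.00117). Of 84 myosins, actins, tubulins and kinesins, Myo6, the myosin that walks toward the minus end of actin, fell from 540 and 441 to 106, 37.5 and 61.3, 7.82-fold (-2.97 ± 0.37, adjusted p = 0.00544). Tubb3, a tubulin known from neurons, rose from 86.9 and 97.7 to 280, 251 and 303 (1.59 ± 0.14, adjusted p = 0.00109), and Myl10 fell (-0.81). Of 105 small GTPases and regulators, Rasgrp1 rose and Arhgap29 (-1.45), Arhgap5 (-1.29), Rin2 (-1.60) and Dock9 (-0.80) fell. Rin2 acts on a Rab protein of endosomes and Dock9 activates Cdc42. Of 3 further Dock9 probe sets above the filter 1 had the opposite sign. Snx9, Mctp1 and Tubb3 kept the call without any 1 of the 7 arrays. The calls of Stx3 and Myo6 ended without U1 or U2 (adjusted p 0.0735 to 0.244), and leaving out U1, U2 or L3 ended that of Syt11 (adjusted p 0.0746 to 0.242). Dropping U1, U2, L2, L3, C1 or C2 ended the calls of Myl10 and Arhgap29 (adjusted p 0.0507 to 0.333), and leaving out U1, U2, L3, C1 or C2 ended those of Arhgap5 and Rin2 (adjusted p 0.083 to 0.362). The call of Dock9 ended without U1, U2, L1, L3, C1 or C2 (adjusted p 0.0525 to 0.265). Syt11, Myl10, Arhgap5 and Rin2 lost the call with the replicate block (adjusted p 0.0556 to 0.0719), and Arhgap29 with the mean of all probe sets (adjusted p = 0.0624), and Arhgap29, Arhgap5 and Rin2 with the Y-linked covariate (adjusted p 0.0539 to 0.0696), and Myl10, Arhgap5 and Rin2 without the intensity filter (adjusted p 0.0527 to 0.057).

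Interferon-stimulated genes had 39 of 48 differences below 0, against 56% of all genes, and a median of -0.15 (-0.24 to -0.06 over the alternatives). Iigp1, an immunity-related GTPase, read 284 and 304 in the unmutated arrays and 142, 148 and 103 in the Luxoid arrays (-1.19 ± 0.20, adjusted p = 0.0278), Ifi30, a lysosomal thiol reductase, 1424 and 1329 in the unmutated arrays and 821, 608 and 564 in the Luxoid arrays (-1.07 ± 0.18, adjusted p = 0.0231), and Oasl2 842 and 972 in the unmutated arrays and 538, 548 and 490 in the Luxoid arrays (-0.78 ± 0.14, adjusted p = 0.0278). These 3 fell and none rose, that is 6.25% called against 1.55% of all genes. The antigen presentation genes, many of them interferon-responsive, had no call among 27 and a median of -0.02. Leaving out U1, U2 or L3 ended the call of Iigp1 (adjusted p 0.066 to 0.306), and leaving out U1, U2, L2, L3, C1 or C2 ended that of Ifi30 (adjusted p 0.0525 to 0.213). The call of Oasl2 ended without U1, U2, L1, L3, C1 or C2 (adjusted p 0.0585 to 0.32). Iigp1 and Oasl2 lost the call with the replicate block (adjusted p 0.0514 to 0.053).

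The families of translation and respiration shared a small shift that no single gene carried past the threshold. Of 270 genes tested in 4 lists 241 had a difference below 0, that is 89.3% against 56% of all genes tested, and the range was -0.69 to 0.51. Mitochondrial ribosomal proteins had a median of -0.30 (68 of 76 below 0, -0.33 to -0.22 over the alternatives). Subunits and assembly factors of the respiratory chain had -0.21 (81 of 89, -0.25 to -0.15), ribosome biogenesis genes -0.19 (53 of 62, -0.24 to -0.17) and cytosolic ribosomal proteins -0.18 (39 of 43, -0.22 to -0.14). The lists' medians in single arrays, as deviations from each gene's mean over the 5 arrays, were 0.19 and 0.14 in the unmutated and -0.01, -0.08 and -0.21 in the Luxoid arrays for the mitochondrial ribosome, so the groups did not overlap. The lowest adjusted p of the 270 genes was 0.0593 (Rpl14, 997 and 944 in the unmutated arrays and 613, 549 and 642 in the Luxoid arrays), and 54, or 20%, had an unadjusted p under 0.05 in limma, against 11.6% of all genes tested. The proteasome, with a median of -0.14 over 37 genes, had overlapping arrays. Genes of DNA replication (59, median -0.06) and mitosis (79, median 0.09) had no call.

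**Figure D4:**
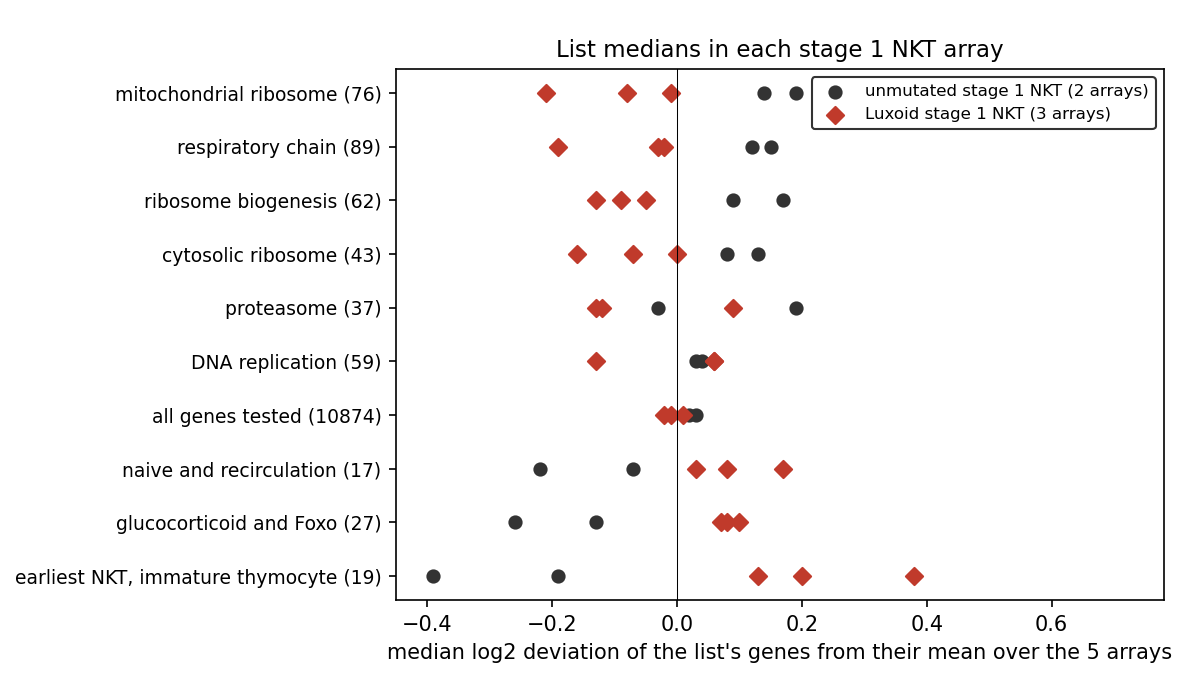
Median deviation of each list's genes from their mean over the 5 arrays (x axis, log2) in single arrays, with the number of genes in brackets. Black circles are the 2 unmutated and red diamonds the 3 Luxoid arrays. The groups do not overlap in the 4 translation and respiration lists or in the lower 3 lists, and they lie close together over all genes tested.

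Of 56 family and function lists 24 had no called member, with 1086 genes tested in them. Over all genes tested 1.55% were called, so a short list without a call does not show that its genes were unchanged. Beside those named above they held the 6 SLAM receptors and SAP adaptors, which NKT cells need for selection, with Slamf1 at 142 and 121 in the unmutated arrays and 134, 127 and 129 in the Luxoid arrays and Slamf6 at 1888 and 1821 in the unmutated arrays and 2386, 2002 and 2115 in the Luxoid arrays. The 25 TGF-beta pathway genes, 8 Gimap GTPases, 28 Bcl2 family and caspase genes, 49 listed genes of central carbon metabolism, 14 histones, 70 heat shock proteins and 87 splicing factors had none either. Single calls were made among 193 solute carriers (Slc11a2, an iron transporter, 0.94 ± 0.17, adjusted p = 0.0317) and 36 cholesterol and fatty acid synthesis genes (Abca1, a cholesterol exporter, -1.43 ± 0.25, adjusted p = 0.0283). These shares were 0.518% and 2.78%. The call of Slc11a2 ended without U1, U2, L2, L3, C1 or C2 (adjusted p 0.0635 to 0.344), and leaving out U1, U2, L1 or L3 ended that of Abca1 (adjusted p 0.0596 to 0.32). Slc11a2 lost the call with the replicate block (adjusted p = 0.0853), and Abca1 with the mean of all probe sets (adjusted p = 0.0715). With the block Slc16a10, Slc25a12 and Slco3a1 were called among the solute carriers (adjusted p 0.0133 to 0.05).

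No list held the other 81 called genes, 48 higher and 33 lower. Among the 20 largest rises these were, beside Fgl2 and Tsc22d1, Lratd1 at 47.1 and 23 in the unmutated arrays and 366, 301 and 313 in the Luxoid arrays, a rise of at least 3.97-fold (3.30 ± 0.27, adjusted p = 0.000736), and Glipr2, from 327 and 167 to 1053, 988 and 1047 (2.14 ± 0.25, adjusted p = 0.00399). Cpa3, a carboxypeptidase known from mast cells, rose from 68 and 48.5 to 231, 255 and 250 (2.09 ± 0.17, adjusted p = 0.000787). Neurl3, a ubiquitin ligase, rose 4.13-fold (2.04 ± 0.18, adjusted p = 0.000955), Exph5, an effector of Rab27, from 30.2 and 40.4 to 122, 187 and 125 (2.02 ± 0.22, adjusted p = 0.00254), and Gcsam, a regulator of lymphocyte motility known from germinal centres, from 112 and 48.8 to 297, 353 and 410 (2.25 ± 0.32, adjusted p = 0.0112). Lratd1, Glipr2, Cpa3, Neurl3 and Exph5 kept the call without any 1 of the 7 arrays. The absence of L3 ended the call of Gcsam (adjusted p = 0.051). Gcsam lost the call with the replicate block (adjusted p = 0.0533).

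Among the 20 largest falls in no list, Pkib, an inhibitor of protein kinase A, fell from 243 and 300 to 76.7, 38.9 and 38.1 (-2.48 ± 0.31, adjusted p = 0.00567). Tktl1, a relative of transketolase, read 497 and 603 in the unmutated arrays and 93.5, 147 and 95.9 in the Luxoid arrays (-2.32 ± 0.28, adjusted p = 0.00427). Ddr1, a collagen receptor kinase, fell 4.27-fold (-2.10 ± 0.25, adjusted p = 0.00435). The focal adhesion protein Tns3 fell from 477 and 256 to 136, 78.8 and 100 (-1.77 ± 0.29, adjusted p = 0.0231), and Lxn, a carboxypeptidase inhibitor, from 925 and 812 to 339, 272 and 136 (-1.90 ± 0.33, adjusted p = 0.0284). In CD4SP Tktl1 read 99.7 and 57.5 and Tns3 22.2 and 24.8, so that the unmutated arrays stood above both other groups. Genes in no list that were called whichever array was left out, named after their values were seen, included Reck, an inhibitor of matrix proteases (1.91), Hectd2 (1.80), Calhm6 (1.61), Ptgfrn (1.45) and Rflnb (1.40) among the rises and the detoxifying enzyme Gsto1 (-1.56) and the transcriptional coactivator Eya2 (-1.55) among the falls. The calls of Pkib and Ddr1 ended without U1 or U2 (adjusted p 0.0584 to 0.113), and leaving out U2 ended that of Tktl1 (adjusted p = 0.0843). Dropping U1, L3, C1 or C2 ended the call of Tns3 (adjusted p 0.0663 to 0.188), and leaving out U1, U2, C1 or C2 ended that of Lxn (adjusted p 0.0822 to 0.247).

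Several of the 81 share the function of a list that does not hold them, and these too were named after their values were seen. Beside the ubiquitin list stood Neurl3 and Hectd2, a HECT-type ligase that read 300 and 253 in the unmutated arrays and 876, 977 and 1023 in the Luxoid arrays (1.80 ± 0.15, adjusted p = 0.00089). Beside the proteases and inhibitors stood the rises of Cpa3, of Reck, which read 82.4 and 60.9 in the unmutated arrays and 225, 308 and 273 in the Luxoid arrays (1.91 ± 0.20, adjusted p = 0.0023), and of Cpd, a carboxypeptidase of the secretory path (1.08 ± 0.18, adjusted p = 0.0204), and the fall of Lxn. Chromatin proteins outside the list moved both ways. Smyd2, a lysine methyltransferase, fell from 392 and 309 in the unmutated arrays to 172, 147 and 147 in the Luxoid arrays (-1.16 ± 0.20, adjusted p = 0.0264). Cdyl2, a chromodomain protein, fell from 892 and 785 to 357, 472 and 296 (-1.18 ± 0.20, adjusted p = 0.0246). Rcor3, a corepressor subunit, fell from 160 and 147 to 95.2, 75.6 and 71.2 (-0.94 ± 0.16, adjusted p = 0.0284). Hmga2, a chromatin architectural protein, rose from 408 and 312 in the unmutated arrays to 710, 725 and 956 in the Luxoid arrays (1.15 ± 0.20, adjusted p = 0.0276). In carbon metabolism Bpgm, bisphosphoglycerate mutase, read 1768 and 1736 in the unmutated arrays and 2803, 3041 and 2762 in the Luxoid arrays and rose (0.71 ± 0.13, adjusted p = 0.0319), and Tktl1 fell as given above. Among transcription factors Nfix (-1.22 ± 0.23, adjusted p = 0.0393) and Trps1, a repressor with a Gata-type finger (-0.66 ± 0.13, adjusted p = 0.0426), fell. Ldlrad4, an inhibitor of TGF-beta signals, rose (1.10 ± 0.20, adjusted p = 0.033). Of GTPase proteins Arap2, which acts on Arf proteins, rose (0.88 ± 0.14, adjusted p = 0.0178) and Rrad, a Ras relative, fell (-1.07 ± 0.13, adjusted p = 0.00432). The call of Hectd2 and Reck held whichever array was left out. Leaving out U1, U2 or L3 ended the call of Cpd (adjusted p 0.0752 to 0.272), and leaving out U1, U2, L2 or L3 ended that of Smyd2 (adjusted p 0.0566 to 0.248). The call of Cdyl2 ended without U1, U2, L1, L3, C1 or C2 (adjusted p 0.0594 to 0.233), and leaving out U1, U2, L2, L3, C1 or C2 ended that of Rcor3 (adjusted p 0.0659 to 0.244). Leaving out U1, U2, L1, L2, L3, C1 or C2 ended the calls of Bpgm and Trps1 (adjusted p 0.064 to 0.348), and leaving out U1, U2, L1, L2 or L3 ended that of Nfix (adjusted p 0.07 to 0.358). The call of Ldlrad4 ended without U1, U2, L1, L2, C1 or C2 (adjusted p 0.0575 to 0.352), and leaving out U1 or U2 ended those of Arap2 and Rrad (adjusted p 0.0608 to 0.231). Hmga2 lost the call without U1, U2, L3, C1 or C2 (adjusted p 0.0544 to 0.325) and with the mean of all probe sets (adjusted p = 0.0671). Cdyl2, Nfix and Trps1 lost the call with the replicate block (adjusted p 0.0514 to 0.053), and Cpd and Trps1 with the mean of all probe sets (adjusted p 0.0803 to 0.217), and Nfix without the intensity filter (adjusted p = 0.0527), and Nfix and Trps1 after quantile normalization (adjusted p 0.0527 to 0.0675), and Trps1 after median centring (adjusted p = 0.054), and Trps1 with a trended prior (adjusted p = 0.0616).

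Genes near the mutated locus were counted because a mutation bred into another strain can carry its neighbours with it. Within 10 Mb of Zbtb16 on chromosome 9, 4 of 138 genes tested were called, all higher: Il10ra, Exph5, Scn4b and Poglut3. That is 2.9%, against 1.02% on the rest of the chromosome, where 1 of 489 rose and 4 fell, and 1.55% over all genes. The origin of the segment is not given in the sources used here, and its part in these 4 rises was not tested. Poglut3 read 186 and 186 in the unmutated arrays and 324, 300 and 341 in the Luxoid arrays (0.79 ± 0.14, adjusted p = 0.0358). Il10ra, Exph5 and Scn4b kept the call without any 1 of the 7 arrays. The call of Poglut3 ended without U1, U2, L1, L2, L3, C1 or C2 (adjusted p 0.0508 to 0.313). Poglut3 lost the call with the replicate block (adjusted p = 0.0726).

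Markers of other cells were summed in each array. Gamma delta T cell markers summed to 4662 and 4993 in the unmutated and 3358, 2975 and 2839 in the Luxoid arrays. All 4 tested had a difference below 0, against 56% of all genes tested, and none was called. Maf, the largest part of the sum, read 2798 and 2690 in the unmutated arrays and 1836, 1476 and 1084 in the Luxoid arrays (-0.94 ± 0.31, adjusted p = 0.262). Sox13 read 199 and 348 in the unmutated arrays and 110, 64.9 and 115 in the Luxoid arrays (-1.49 ± 0.30, adjusted p = 0.0578). 5830411N06Rik read 795 and 1095 against 602, 668 and 720 (-0.49 ± 0.17, adjusted p = 0.298). Cd163l1 differed little, at 761 and 785 against 762, 692 and 846 (-0.02 ± 0.19, adjusted p = 0.985). Maf and Sox13 are also used by type 17 cells. CD8 lineage markers summed to 4262 and 4664 and 3601, 3185 and 3148, a sum that Itgae dominates. B cell markers summed to 1071 and 1017 and 898, 825 and 817, a difference that Ighm carried at 526 and 485 against 365, 219 and 283. Regulatory T cell markers (3048 and 2560 against 3429, 2383 and 2788) and myeloid markers (2020 and 1835 against 1931, 1753 and 1513) overlapped, and no erythroid marker of 5 reached the filter in any of the 5 arrays. In thymic epithelium markers the sums were 919 and 933 and 1133, 1076 and 1071, with no call among 4. The part of these shifts in the falls of Rora and Nrp1 and in the rises given above was not tested.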

How the data were processed

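The samples were 7 thymocyte pools on single-colour Affymetrix mouse arrays. Per the labels' protocols RNA of sorted cells was amplified and labelled as cDNA. Per the submitters' processing notes the authors used RMA and Affymetrix Expression Console, with no version named. What they deposited are linear intensities from 3.08 to 20875. The design had allowed for either scale, so log2 was taken first.

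Of 45037 probe sets 34945 had 1 gene symbol in the GEO platform annotation, 932 several and 9160 none listed, and 34741 matched RefSeq (GRCm38.p6) with 0 symbols changed. Each of 18193 genes was represented by its brightest probe set, and 10874 genes reached 82.0, the 50th percentile of all values, in at least 2 arrays. limma 3.58.1 in R 4.3.3 was fitted with a mean per group (4 residual and 4.49 prior degrees of freedom), with Benjamini-Hochberg adjustment over all genes tested and a threshold of 0.05. No 2 arrays held identical values. Deviations from the group means correlated at 0.334 to 0.491 in all 6 pairs of same-numbered arrays, which are not independent since 2 arrays of a group deviate as mirror images. The replicate numbers were therefore taken as a possible pairing of the samples, and it entered the replicate block only. The main fit did not pair the arrays, so the differences, standard errors and calls given without mention of the block take no account of it. The pairing comes from the data, since the labels do not say what a number marks. Kdm5d followed the number too (6.49 to 11.7 in arrays 1, 1120 to 2331 in arrays 2). Samples that share mice or a preparation are not told apart by the labels, so p-values measure the spread between these pools, and the small number of arrays limits the precision. Promoters are the first RefSeq entry per gene, without those on chromosome 18.

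Genes named were all Zbtb16 probe sets, the 20 largest called differences in each direction with groups that do not overlap, in each list up to 8 called and 4 uncalled members, called genes within 10 Mb of Zbtb16, and a fixed set of sort and identity genes. Members and lists were chosen with earlier results of these data known. Alternatives were the intensity filter, the probe set rule, normalization, 16 added before log2, the 5 stage 1 NKT arrays alone, a trended prior, the replicate block, a covariate from Kdm5d, Eif2s3y and Uty, and arrays left out. The fit was tested on simulated data.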

Additional observations from a re-analysis of the deposited data

How the results depend on the processing

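The 169 calls (98 higher, 71 lower) ranged from 55 to 178 when 1 array was left out, those higher from 39 to 95 and those lower from 16 to 83, the lowest without an unmutated array. Leaving out either CD4SP array gave 126, the count of the 5-array fit, since a lone CD4SP array adds nothing to the spread. Without both mixed-sex pools 10 were called (6 higher, 4 lower), 9 of them shared with the 169; an arm of 1 array is then assumed to vary like the others. The mean of all probe sets of a gene gave 251 calls, with 113 lower. Other settings gave 145 to 208: 172 without the filter, 145 with a filter at 306.7, 171 after quantile normalization, 175 after median centring, 182 with 16 added, 208 with a trended prior and 198 with the Y-linked covariate. No called gene changed direction. Some uncalled differences did: Ccr9 (-0.03 without U1), Id3 (-0.06 without L1), Cd44 (0.18 without U1), Per2 (0.24 without U2), and also Slamf1, Clock, Trbv1 and the sex-linked Kdm5d and Xist. Of the list medians given, those of the cytokine receptors, proteases, mitosis and antigen presentation lay near 0 and changed sign under at least 1 alternative. With the replicate block 170 were called, 133 of them among the 169; named genes whose call it changed are given beside their values, and it changed no other named call. The Zbtb16 probe sets stayed uncalled throughout. The array number and signal near the floor limit the genes under 82.0.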

Other observations

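Clock genes were looked at after Nr1d2, Dbp and Nfil3 had been seen among the calls. Nr1d2 fell from 160 and 192 to 93.7, 50.9 and 74.6 (-1.31 ± 0.24, adjusted p = 0.0376) and Dbp from 608 and 611 to 377, 416 and 353 (-0.68 ± 0.13, adjusted p = 0.0493), while Nfil3, which acts against Dbp on shared sites, rose (1.43 ± 0.16, adjusted p = 0.00354). Bhlhe40, a repressor of the clock that T cell receptor signals also induce, read 62.5 and 48.9 in the unmutated arrays and 139, 152 and 89.1 in the Luxoid arrays (1.16 ± 0.23, adjusted p = 0.0568) and was not called, although it was with the replicate block (adjusted p = 0.0122). Nor were Per1 (0.30), Per2 (-0.07), Cry1 (-0.44), Arntl (-0.35) or Clock (-0.12). U, L and C again stand for unmutated, Luxoid and CD4SP arrays. The absence of U1, U2, L3, C1 or C2 ended the call of Nr1d2 (adjusted p 0.092 to 0.362), and leaving out U1, U2, L1, L2, L3, C1 or C2 ended that of Dbp (adjusted p 0.0532 to 0.352). The call of Nfil3 ended without U2 (adjusted p = 0.0685). Nr1d2 and Dbp lost the call with the replicate block (adjusted p 0.0719 to 0.0931), and Nr1d2 with the Y-linked covariate (adjusted p = 0.0676), and Nr1d2 and Dbp without the intensity filter (adjusted p 0.0516 to 0.0522), and Dbp after quantile normalization (adjusted p = 0.0652), and Dbp after median centring (adjusted p = 0.0603), and Dbp with a trended prior (adjusted p = 0.0534).

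A variable segment of the T cell receptor beta chain differed as well, again picked after its values were seen. Trbv13-2, a segment that NKT cells use often, read 953 and 1031 in the unmutated arrays and 2068, 1964 and 1584 in the Luxoid arrays, with 2372 and 2292 in CD4SP (0.91 ± 0.15, adjusted p = 0.0261). The call of Trbv13-2 ended without U1, U2, L1, L2, C1 or C2 (adjusted p 0.06 to 0.229). Trbv1 read 8781 and 8026 in the unmutated arrays and 9089, 8504 and 8504 in the Luxoid arrays (0.05 ± 0.13, adjusted p = 0.938). Probes for one segment may bind its relatives.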
